A study of Mus musculus with 15 samples.

Results

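The 9 genes described here make, carry, bind or break down retinoic acid, the hormone that cells form from vitamin A: *Rdh10*, *Aldh1a1*, *Aldh1a2*, *Aldh1a3*, *Crabp1*, *Crabp2*, *Stra6*, *Rbp4*, and *Cyp26a1*. They were chosen by name, as every probe outside the array's control spots whose gene name is one of these. This gave 11 probes for 9 genes, of 41174 probes for 27677 gene names in all. The RNA came from uteri of ovariectomized adult female mice of at least 10 weeks, rested for 10 to 14 days and then injected once, intraperitoneally, with 100 µl of saline or with 250 ng of estradiol (E2) or estriol (E3) in that volume. E2 is the main ovarian estrogen, and E3 is a weaker estrogen that differs from it by an additional hydroxyl group on the D ring. The 5 groups, of 3 one-color arrays each, were saline at 24 hr, E2 at 2 hr, E3 at 2 hr, E2 at 24 hr, and E3 at 24 hr. The E2 arrays of 2 hr came from C57bl6/Jx129 mice labeled WT for *Esr1* and were read on another scanner, on other slides, and on another day than the 12 arrays of the other groups, all of C57bl6/J mice. For E2 at 2 hr, the treatment therefore cannot be told apart from strain and scan, and, because saline was measured at 24 hr alone, neither 2-hr group has a control of its own time.

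Retinol travels in plasma on the retinol-binding protein encoded by *Rbp4* and enters cells through the receptor encoded by *Stra6*. Retinol dehydrogenases such as *Rdh10* oxidize it to retinaldehyde, and the retinaldehyde dehydrogenases *Aldh1a1*, *Aldh1a2*, and *Aldh1a3* convert that irreversibly to retinoic acid. Inside the cell *Crabp1* and *Crabp2* bind retinoic acid, *Crabp2* being known for handing it to nuclear receptors, and *Cyp26a1* hydroxylates it for removal. In the uterus retinoic acid is known for its part in epithelial differentiation and in the preparation of the stroma for implantation.

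Promoter sequence (250 bases before to 50 bases after a transcript's start, RefSeq, build GRCm38.p6) was found for 6 of the 9 genes, in 11 promoters. The 3 shown are for 1 gene each of breakdown, binding, and synthesis described below. For *Cyp26a1*, chr19:37697558-37697857, plus strand, capitals mark, on the minus strand, the DR5 variant, a direct repeat of AGTTCA of the kind that retinoic acid receptors are known to bind.
Cyp26a1: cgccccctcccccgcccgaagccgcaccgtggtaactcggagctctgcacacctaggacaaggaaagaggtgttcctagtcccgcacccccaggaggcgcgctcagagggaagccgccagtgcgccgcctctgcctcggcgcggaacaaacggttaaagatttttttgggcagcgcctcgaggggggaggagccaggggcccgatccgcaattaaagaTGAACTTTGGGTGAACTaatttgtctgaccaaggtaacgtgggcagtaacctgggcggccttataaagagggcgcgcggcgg
For *Crabp1*, chr9:54764498-54764797, plus strand, capitals mark the GC box GGGCGG on either strand, a motif of Sp1-family factors, through which estrogen receptor is known to act by tethering.
Crabp1: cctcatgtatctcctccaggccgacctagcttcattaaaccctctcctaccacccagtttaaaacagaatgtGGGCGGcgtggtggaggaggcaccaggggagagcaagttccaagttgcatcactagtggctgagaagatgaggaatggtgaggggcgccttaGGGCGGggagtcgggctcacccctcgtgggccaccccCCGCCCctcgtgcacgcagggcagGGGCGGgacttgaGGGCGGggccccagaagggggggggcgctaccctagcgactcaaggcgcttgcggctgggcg
For *Aldh1a2*, chr9:71215539-71215838, plus strand, capitals mark the reverse complement of GGTCA, the arm of the estrogen response element palindrome.
Aldh1a2: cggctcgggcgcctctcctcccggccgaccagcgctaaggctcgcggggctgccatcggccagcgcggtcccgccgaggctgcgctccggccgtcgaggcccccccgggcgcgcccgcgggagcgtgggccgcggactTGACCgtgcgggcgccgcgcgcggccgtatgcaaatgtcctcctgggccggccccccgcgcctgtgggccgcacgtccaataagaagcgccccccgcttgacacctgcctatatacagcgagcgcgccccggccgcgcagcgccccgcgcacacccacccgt
Both strands of all 32851 promoters of the same length were searched for the same letters. The *Cyp26a1* repeat began at position -32 from the start and was present in 0.0244% of promoters. Its arms overlap the shorter motif AGTTCA, found in 14.0% of promoters, and the *Cyp26a1* window also held 1 GGTCA outside the repeat. The 5 GC boxes of *Crabp1* compare with 35.7% of promoters that hold at least 1, and the 1 GGTCA of *Aldh1a2*, at position -112, compares with 40.5%. The full estrogen response element palindrome, whose arms overlap GGTCA (0.07% of promoters), and the DR5 repeat of AGGTCA (0.00913%) were in none of the 11 promoters of these genes. These matches describe letters, not binding. *Rdh10*, *Aldh1a3*, and *Crabp2* are named only.

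Levels are log2 processed signals relative to the array's 75th percentile, so that 0 is that percentile, and they compare groups for 1 probe but not probes with each other. A gene was called when limma gave p below 0.001 and the change was at least 2-fold, and adjusted p-values are Benjamini-Hochberg values over all probes tested. The uterus was recognizable in all groups: the 7 epithelial, 7 stromal, and 6 smooth muscle markers were all above background in every group, as were 3 of the 4 gland markers measured. The 75th percentile was 2989 to 4412 intensity units, 77.8% to 81.8% of probes were well above background on an array, and replicate arrays correlated at 0.982 to 0.995. Exocrine pancreas markers stood far out on 2 arrays, E3 2 hr replicate 2 (summed level 440 in units of the 75th percentile) and E2 24 hr replicate 2 (208). They were also raised on E3 2 hr replicate 3 (9.4) and E2 24 hr replicate 3 (4.13), against 0.194 to 0.436 on the other arrays. Without the 2 richest arrays, calls were lost for the E3 minus E2 differences of *Cyp26a1* (1.03), *Rdh7*, and *Ttr* at 2 hr and of *Crabp1* (-2.44) and *Lrat* (-1.57) at 24 hr, for *Adh1* (0.983), *Rdh14* (-0.982), and *Meis1* (-0.948) with E3 at 2 hr, and for *Rarres1* (-1.15) with E3 at 24 hr. The *Rarres1* comparison holds neither of these arrays and kept its value, so its loss reflects the smaller fit. Each of these calls but that of *Adh1* was also lost when a single other array was left out. The labels describe each uterus as homogenized separately, while the methods describe pooled tissue, so the p-values measure the spread between arrays, which may not be that between mice.

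The genes that make retinoic acid moved apart from each other. *Aldh1a2* was higher 2 hr after either estrogen and still higher at 24 hr with E2, whereas *Aldh1a3* was 13.6-fold lower at 24 hr with E2, and *Crabp1* was 13.6-fold higher in the same group. *Crabp2*, dim with saline, was higher there too, in a call that normexp background correction, another treatment of dim signals, did not keep. At 2 hr 4 of the 9 genes were called after E2, beside 21.2% of all probes tested, 1 of them higher (10.6% of all probes) and 3 lower (10.7%). After E3 at 2 hr 1 gene was called, beside 13.8% of all probes (4.68% higher and 9.11% lower), and it was higher. At 24 hr 5 were called after E2, beside 18.1%, of which 3 were higher (6.93% of all probes) and 2 lower (11.1%). After E3 at 24 hr limma called 0, beside 3.81% (1.85% higher and 1.96% lower), with an unadjusted p below 0.05 for 5 of the 9, and 2 reached an adjusted p below 0.05 with 2-fold. The direction of the calls over all probes at 24 hr moved with the processing: 38.4% of them were higher with E2 and 48.5% with E3, against 54.4% and 89.3% under normexp correction, and for E3 58.6% under quantile normalization and 38.4% without scaling. The arrays of the treated group did not overlap those of saline for 7 and 6 of the genes at 2 hr (E2 and E3, beside 67.2% and 58.1% of all probes) and for 8 and 5 at 24 hr (beside 68.9% and 51.5%). Since most probes of the array separated in this way too, this separation is not read as a result about the 9 genes. The median log2 change of the 9 genes was -0.76 and -0.59 at 2 hr and -0.59 and 0.17 at 24 hr, for E2 and E3, beside -0.08, -0.11, -0.06, and -0.01 over all probes. The E2 and E3 comparisons share the same 3 saline arrays, so they are given side by side and not correlated.

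**Figure D1:**
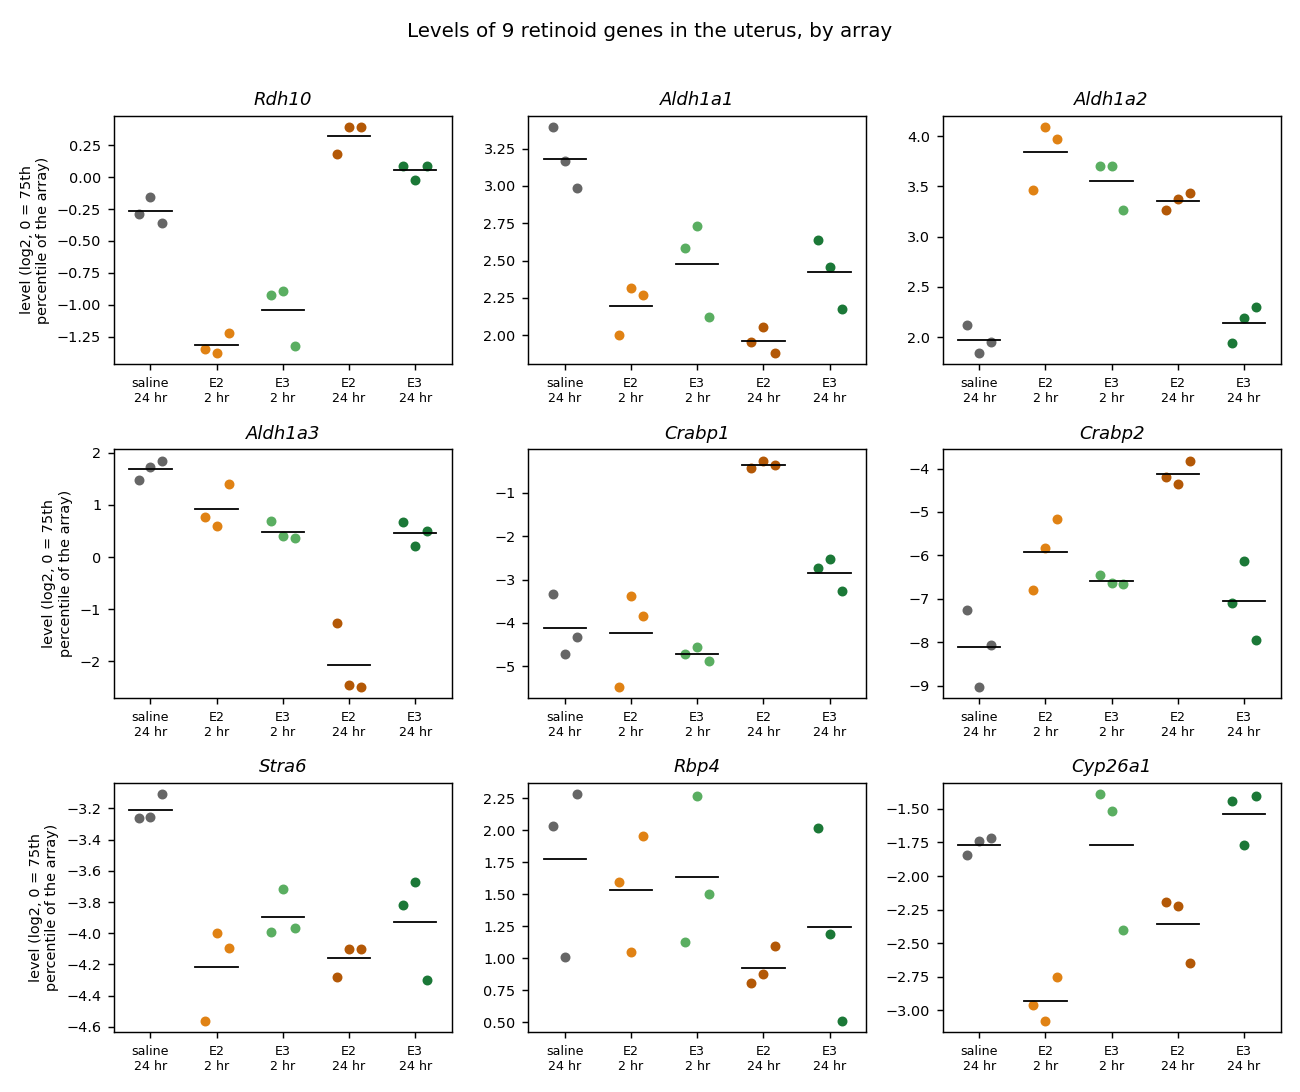
Level of each of the 9 genes (log2, 0 = 75th percentile of the array) on the 15 arrays, by group, with points for arrays in the order of replicates 1 to 3 and a line for the group mean. *Aldh1a2* is high in the 2-hr groups and with E2 at 24 hr, *Aldh1a3* is lowest and *Crabp1* and *Crabp2* are highest with E2 at 24 hr, and the groups of *Rbp4* overlap.

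**Figure D2:**
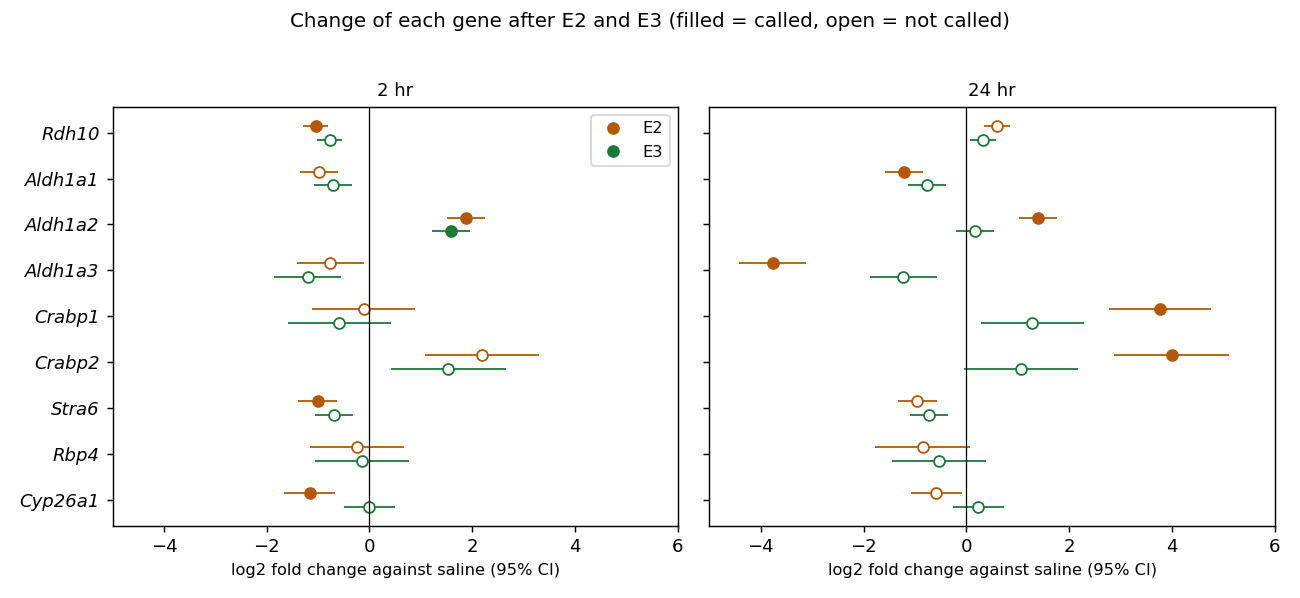
Log2 fold change against saline at 2 hr (left) and 24 hr (right) for E2 (brown) and E3 (green), with the 95% confidence interval from limma. Filled points passed the call (p below 0.001 and at least 2-fold). At 24 hr the filled points are all E2: *Aldh1a1*, *Aldh1a2*, *Aldh1a3*, *Crabp1*, and *Crabp2*.

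*Aldh1a2*, the dehydrogenase that supplies most retinoic acid in the embryo (probe chr9:71330506-71330565, plus strand, mm7), stood at 2.12, 1.84, and 1.96 on the saline arrays. After 2 hr it reached 3.47, 4.09, and 3.97 with E2. With E3 at 2 hr it was at 3.70, 3.70, and 3.26. Both groups lay wholly above saline and overlapped each other. The rise was 1.87 ± 0.17 on the log2 scale with E2 (SE, n = 3 arrays a group; 3.66-fold; limma adjusted p = 1.58e-06) and 1.59 ± 0.17 with E3 (3-fold; limma adjusted p = 1.04e-05). The difference between the compounds at 2 hr was -0.29, with a 95% interval of -0.66 to 0.08. At 24 hr the E2 arrays read 3.26, 3.38, and 3.44, still above every saline array, with a rise of 1.39 ± 0.17 (limma adjusted p = 2.37e-05). The E3 arrays had returned to 1.94, 2.19, and 2.30, which overlapped saline (0.17 ± 0.17, 95% interval -0.20 to 0.54). E3 was thus 2.33-fold below E2 at 24 hr (-1.22 ± 0.17, limma adjusted p = 0.000233). The change of the E3 minus E2 difference between the times, -0.93 ± 0.24, was not called (limma adjusted p = 0.00752). The 4 calls of *Aldh1a2* held under every alternative run. On the 1 slide that held both groups, the E3 arrays of 2 hr were 1.6 above the single saline array, and the other 8 genes kept the sign of their E3 change there. In the order of mean levels, E2 at 2 hr, E3 at 2 hr, and E2 at 24 hr overlapped from each group to the next, as did E3 at 24 hr and saline, and the gap of 0.96 between these sets was free of arrays. The 4 markers of mesothelium, which lines the outer wall and is a known site of *Aldh1a2*, summed to 2.68 to 5.38 with saline, 2.36 to 4.56 in the 2-hr groups, and 2.66 to 5.32 at 24 hr, with none called in any comparison. The 7 stromal markers summed to 117 to 124 with saline, 56 to 85.4 in the 2-hr groups, and 177 to 199 at 24 hr. Of these 7, 4 were called lower with E2 and 3 with E3 at 2 hr, and 1 was called higher with each at 24 hr. The larger sums of 24 hr came from *Col1a1*, *Col3a1*, and *Vim*. *Hoxa10*, *Hoxa11*, *Pdgfra*, and *Nr2f2* were at -0.69 to -0.0045 against saline then, and the median of the 7 was -0.20 with E2 and -0.0045 with E3. The part of these cells in the *Aldh1a2* levels was not tested. In whole uterus, more cells of a type and more RNA per cell cannot be told apart.

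*Aldh1a3* was measured by a bright and a dim probe on the minus strand (chr7:62248866-62248925 and chr7:62266988-62267047, mm7). On the bright probe the saline arrays read 1.49, 1.73, and 1.85. E2 at 24 hr brought them to -1.27, -2.45, and -2.49. E3 at 24 hr stopped at 0.67, 0.21, and 0.50. The 3 groups did not overlap. *Aldh1a3* fell by 3.76 ± 0.30 on the log2 scale with E2 (13.6-fold; limma adjusted p = 1.13e-06), and its change with E3 was -1.23 ± 0.30 (limma adjusted p = 0.00803, not called). That E3 change was called under 5 of 28 alternatives. E3 was 5.78-fold above E2 (2.53 ± 0.30, limma adjusted p = 8.03e-05). On the dim probe the fall was 2.97 with E2 and 1.36 with E3, both called (limma adjusted p = 2.26e-07 and 0.000253), and E3 was 1.61 above E2 on the log2 scale. These 3 calls of the dim probe were lost under normexp background correction, which gave -1.91, -0.354, and 1.56. At 2 hr the bright probe gave -0.76 ± 0.30 with E2 and -1.20 ± 0.30 with E3, neither called, and the compounds' arrays overlapped. This E3 value was called under 3 of 29 alternatives. The dim probe gave -0.10 with E2, whose arrays overlapped saline, and -0.73 with E3, neither called, and there the compounds' arrays did not overlap (E3 minus E2 -0.63, limma adjusted p = 0.0117, not called). The E3 minus E2 difference moved by 2.97 ± 0.42 from 2 to 24 hr (limma adjusted p = 0.000177). *Aldh1a3* was the 1 gene of the 9 with this interaction called, beside 15.5% of all probes (11.1% higher and 4.39% lower).

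*Aldh1a1*, the third enzyme of this step (chr19:20343581-20343640, plus strand, mm7), was highest on the saline arrays, at 3.40, 3.17, and 2.99. With E2 at 24 hr it was at 1.95, 2.06, and 1.88. It was lower than saline on all 12 treated arrays, and the 4 treated groups ran into each other. It fell by 1.22 ± 0.17 with E2 at 24 hr (2.33-fold; limma adjusted p = 6.08e-05). The other changes were -0.99 with E2 at 2 hr, -0.70 with E3 at 2 hr, and -0.76 with E3 at 24 hr, each short of 2-fold. The differences between E3 and E2 were 0.28 at 2 hr (95% interval -0.09 to 0.65) and 0.46 at 24 hr (0.09 to 0.83), and neither was called. The sum of the 11 liver markers, which are described with *Rbp4*, was also highest with saline, at 27.5, 9.04, and 7.4 on the 3 arrays, in the same order as *Aldh1a1*, a gene known to be abundant in liver. The orders were the same within both E3 groups and with E2 at 24 hr as well, but not with E2 at 2 hr, where the liver sums were the lowest (0.279 to 0.325) and *Aldh1a1* was at 2.00 to 2.32. The part of liver RNA in the *Aldh1a1* levels was not tested. *Aldh1a1* at E2 2 hr lay so close to the 2-fold limit that it was called under 7 of 27 alternatives.

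*Rdh10*, the retinol dehydrogenase of embryonic retinoic acid synthesis, had opposite signs at the 2 times. Its brighter probe (chr1:16320651-16320710, plus strand, mm7) read -0.29, -0.16, and -0.36 with saline. At 2 hr the E2 arrays read -1.35, -1.38, and -1.22, and the E3 arrays -0.92, -0.89, and -1.32. At 24 hr the E2 arrays read 0.18, 0.39, and 0.39, and the E3 arrays 0.09, -0.02, and 0.09. Every 2-hr array was below, and every 24-hr estrogen array above, all saline arrays. *Rdh10* fell by 1.05 ± 0.11 with E2 at 2 hr (2.07-fold; limma adjusted p = 7.27e-06). This call is near the limit and was lost under quantile normalization (-0.993), without scaling between arrays (-0.957), and without saline replicate 2. The other changes, -0.78 with E3 at 2 hr, 0.59 with E2 at 24 hr, and 0.32 with E3 at 24 hr, did not reach 2-fold. The second probe (chr1:16320067-16320126) had the same signs, at -0.76, -0.39, 0.99, and 0.60, with none called.

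Both cellular binding proteins were called higher with E2 at 24 hr. *Crabp1* (chr9:54797711-54797770, plus strand, mm7) read -3.34, -4.72, and -4.32 with saline. At 24 hr it read -0.44, -0.26, and -0.36 with E2. With E3 it read -2.74, -2.52, and -3.26. The E2 arrays lay close together and far above the others, and the E3 arrays lay just above saline. The rise was 3.77 ± 0.46 with E2 (13.6-fold; limma adjusted p = 2.22e-05) and 1.28 ± 0.46 with E3 (2.43-fold; limma adjusted p = 0.048, not called). E3 was 5.61-fold below E2 (-2.49 ± 0.46, limma adjusted p = 0.00136). That difference lost its call by a small margin without E3 24 hr replicate 3 (-2.28) and without the 2 arrays rich in pancreas markers (-2.44). At 2 hr the values were -0.11 with E2 and -0.59 with E3, and both groups overlapped saline. The E2 value turned to 0.0797 under quantile normalization and to 0.508 without E2 2 hr replicate 1.

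*Crabp2* (chr3:88062561-88062620, plus strand, mm7) was dim, with 1 of the 3 saline arrays and 2 of the 3 E3 arrays of 24 hr well above background. Its levels were -7.27, -9.03, and -8.07 with saline. With E2 at 24 hr they were -4.20, -4.36, and -3.82, all well above background. With E3 at 24 hr they were -7.09, -6.14, and -7.95. The E2 group stood clear of all others, and the E3 group overlapped saline. The rise with E2 was 3.99 ± 0.51 (limma adjusted p = 3.36e-05) against a saline group of which 1 array was well above background. The change with E3 was 1.06 ± 0.51 (95% interval -0.06 to 2.18), and E3 was below E2 by a log2 difference of -2.93 ± 0.51 (limma adjusted p = 0.000985). Under normexp background correction the rise with E2 was 1.71 and the difference between the compounds was -0.287, neither called. At 2 hr *Crabp2* was at 2.19 ± 0.51 with E2 (limma adjusted p = 0.00259) and 1.53 ± 0.51 with E3 (limma adjusted p = 0.0257), above saline on all 6 arrays and not called. Under the alternatives the E2 value ran from 0.691 to 2.62 and was called under 9 of 27. The E3 value ran from 0.398 to 1.96 and was called under 1 of 29. The 7 epithelial markers summed to 155 to 166 with E2 and 122 to 132 with E3 at 24 hr, against 73.3 to 101 with saline, and 3 of the 7 were called higher with E2. Their part in the rise of *Crabp1* and *Crabp2* was not tested.

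*Stra6*, the retinol uptake receptor (chr9:58180793-58181404, plus strand, mm7), was lower on all 12 estrogen arrays than on any saline array. Saline gave -3.26, -3.25, and -3.11, and the treated arrays ran from -4.56 to -3.67. The change was -1.01 ± 0.17 with E2 at 2 hr (2.01-fold; limma adjusted p = 0.000248), which is the one that was called. It was -0.68 with E3 at 2 hr, -0.95 with E2 at 24 hr, and -0.72 with E3 at 24 hr. The call at 2 hr was lost under normexp correction (-0.747), quantile normalization (-0.828), and no scaling (-0.918), and without E2 2 hr replicate 1 or saline replicate 3. At 24 hr with E3, normexp brought the change to 0.000471. The compounds differed by 0.33 at 2 hr (95% interval -0.05 to 0.70) and 0.23 at 24 hr (-0.14 to 0.60).

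*Rbp4*, whose protein carries retinol in plasma and is made mostly by liver and also by fat, was not called in any comparison (limma adjusted p from 0.101 to 0.866 in the 6 comparisons between groups). The saline arrays read 2.03, 1.01, and 2.28. With E3 at 24 hr they read 2.02, 1.19, and 0.51. Replicates within a group spread about as widely as the groups. The largest change, with E2 at 24 hr, was -0.85 ± 0.42 (95% interval -1.77 to 0.07). The sum of the 7 fat markers had the same order of arrays as *Rbp4* in each group other than E2 at 2 hr: with saline it was 55.7, 13.6, and 76.9, and with E3 at 24 hr 54.4, 27.8, and 10.7. It was 9.49 to 15.4 on the E2 arrays of 24 hr, where *Rbp4* was 0.81 to 1.10. The sum of the 11 liver markers had the same order as *Rbp4* with E3 at 24 hr (0.774, 0.481, and 0.475) and in no other group. It was 27.5, 9.04, and 7.4 with saline, 1.91 to 4.6 with E3 at 2 hr, 0.279 to 0.325 with E2 at 2 hr, and 0.411 to 0.774 at 24 hr, and all 11 were called lower in each comparison with saline other than E3 at 2 hr (2 of 11). Albumin itself was well above background on 1 of the 3 E2 arrays of 2 hr, where *Rbp4* was 1.05 to 1.95. The part of fat or liver RNA in the *Rbp4* levels was not tested.

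**Figure D3:**
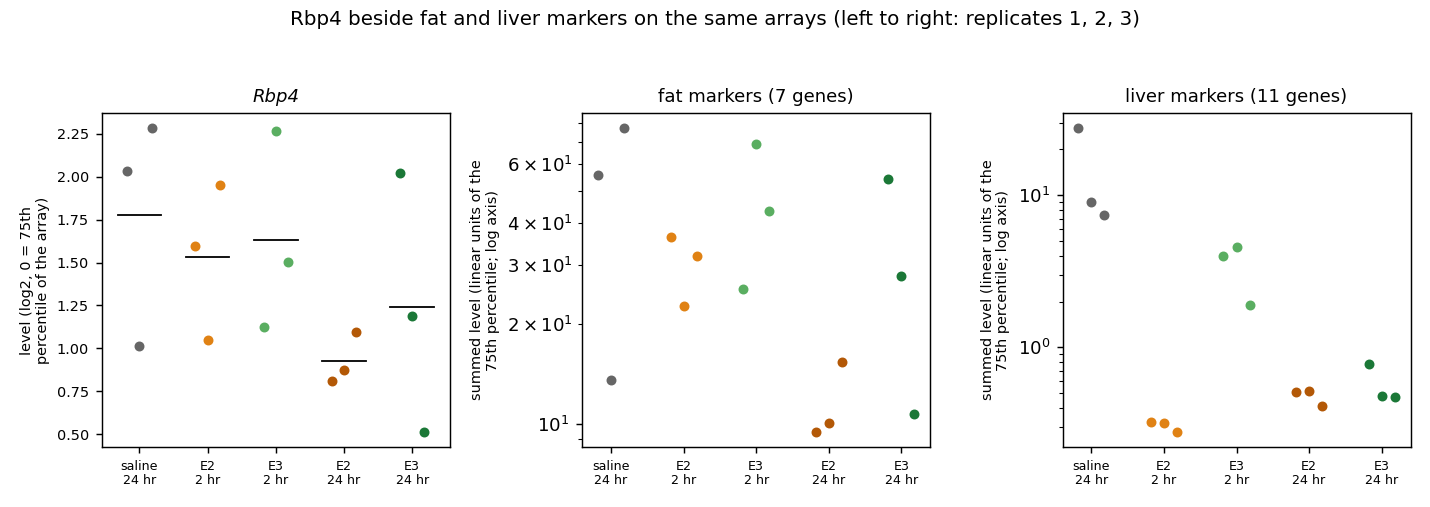
Level of *Rbp4* (left, log2, 0 = 75th percentile, line = group mean) beside the summed level of 7 fat markers (middle) and 11 liver markers (right) on the same 15 arrays, both on a log axis in units of the 75th percentile. Within groups, arrays high in *Rbp4* tend to be high in fat markers, as in saline (2.03, 1.01, and 2.28 beside 55.7, 13.6, and 76.9), while the liver markers differ mainly between groups.

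*Cyp26a1*, the retinoic acid hydroxylase whose promoter repeat is shown above (probe chr19:37401759-37401818, plus strand, mm7), was lower with E2 at 2 hr, and E3 differed from E2. Saline gave -1.84, -1.74, and -1.72. E2 at 2 hr gave -2.96, -3.08, and -2.75. E3 at 2 hr gave -1.39, -1.52, and -2.40. The E2 arrays lay below both other groups, and those of E3 lay on both sides of saline. The fall with E2 was 1.16 ± 0.23 (2.24-fold; limma adjusted p = 0.000744), the change with E3 was -0.00 ± 0.23 (95% interval -0.50 to 0.49, with a sign that turned under other settings), and the difference was 1.16 ± 0.23 (limma adjusted p = 0.00157). It was the 1 gene of the 9 called between the compounds at 2 hr, beside 7.37% of all probes (1.54% higher and 5.83% lower with E3), and the compounds' arrays did not overlap for 2 of the 9 genes, beside 50.8%. The E2 call was lost under 6 of 27 alternatives and the difference under 8 of 27, among them normexp correction, no scaling, and leaving out E2 2 hr replicate 1 or 2, with values of 0.968 to 1.47 for the difference. It also rests on the group of the other strain and scanner. In the same comparison 10 of the 11 liver markers were called higher with E3 and 0 lower, with a median of 4.64. With E3 at 24 hr all 11 were called lower against saline, where *Cyp26a1* was at 0.23. The part of liver RNA in the *Cyp26a1* levels was not tested. At 24 hr E2 gave -2.19, -2.22, and -2.65, again below every saline array (-0.59 ± 0.23, limma adjusted p = 0.0399, not called), and E3 gave -1.44, -1.77, and -1.40.

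Between the compounds at 24 hr, at the same dose, 4 of the 9 genes were called (1 higher and 3 lower with E3 than with E2, beside 4.85% of all probes, 2.77% higher and 2.07% lower), and the arrays did not overlap for 7 of the 9 (51.3% of all probes). The genes called were *Aldh1a3*, *Aldh1a2*, *Crabp1*, and *Crabp2*, with the values given above, and E3 lay between saline and E2 in mean level for each. *Rdh10*, *Aldh1a1*, *Stra6*, *Rbp4*, and *Cyp26a1* were not called, with differences of -0.27 to 0.82, and the intervals of *Cyp26a1* (0.32 to 1.31) and *Rbp4* (-0.61 to 1.24) extend past 2-fold. With 2 compounds at 2 times, 2 pairs of groups were compared in this way.

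Among 55 other genes of the retinoid pathway listed, 52 were on the array and 48 were tested. With E2, 15 were called at 2 hr (9 higher and 6 lower) and 8 at 24 hr (2 higher and 6 lower). With E3, 11 were called at 2 hr (6 higher and 5 lower) and 4 at 24 hr (0 higher and 4 lower). Their median changes, -0.30, -0.04, -0.15, and -0.04, stand beside the medians over all probes given above, and the counts beside 21.2%, 18.1%, 13.8%, and 3.81% of all probes.

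The retinoic acid receptors *Rara* and *Rarb* moved in opposite directions at 2 hr with both compounds. The 7 receptors tested were the 6 retinoid receptors and *Ppard*. Of these 7, 3 were called with E2 and 2 with E3 at 2 hr, beside 21.2% and 13.8% of all probes, and 0 with either at 24 hr, beside 18.1% and 3.81%. *Rara* read -5.06, -5.21, and -5.24 with saline and -4.33 to -3.81 on the 6 arrays of 2 hr. It rose by 1.11 ± 0.12 with E2 and 1.22 ± 0.12 with E3 (limma adjusted p = 8.42e-06 and 6.81e-06). *Rarb*, itself a known retinoic acid target, read -1.01, -1.44, and -1.06 with saline and -3.50 to -2.51 at 2 hr. It fell by 1.81 ± 0.25 with E2 and by 1.48 ± 0.25 with E3 (limma adjusted p = 5.46e-05 and 0.000405). E3 minus E2 was 0.10 for *Rara* (95% interval -0.17 to 0.37) and 0.33 for *Rarb* (-0.22 to 0.89). On a dim second probe of *Rarb* the E2 arrays of 2 hr were not well above background, E3 was at -1.27 and not called, and the difference between the compounds was called, unlike on the brighter probe. Under normexp correction the *Rara* values were 0.731 and 0.864 and lost their calls, as did that of E2 without E2 2 hr replicate 2. At 24 hr the changes of both receptors ran from -0.18 to 0.28, and none was called. *Rxrg*, a partner receptor, rose by 1.39 ± 0.27 with E2 at 2 hr (limma adjusted p = 0.000627) and was at 0.84 ± 0.27 with E3, not called. Its E2 call was lost under 5 of 27 alternatives, among them leaving out E2 2 hr replicate 1 or 2 or saline replicate 2. *Rarg*, *Rxra*, and *Rxrb* were not called in any comparison, with changes of -0.87 to 0.18 against saline. The dimmer probes of *Rxra* and *Rxrb* went the other way from the brighter ones in some comparisons, so no direction is given for them.

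**Figure D4:**
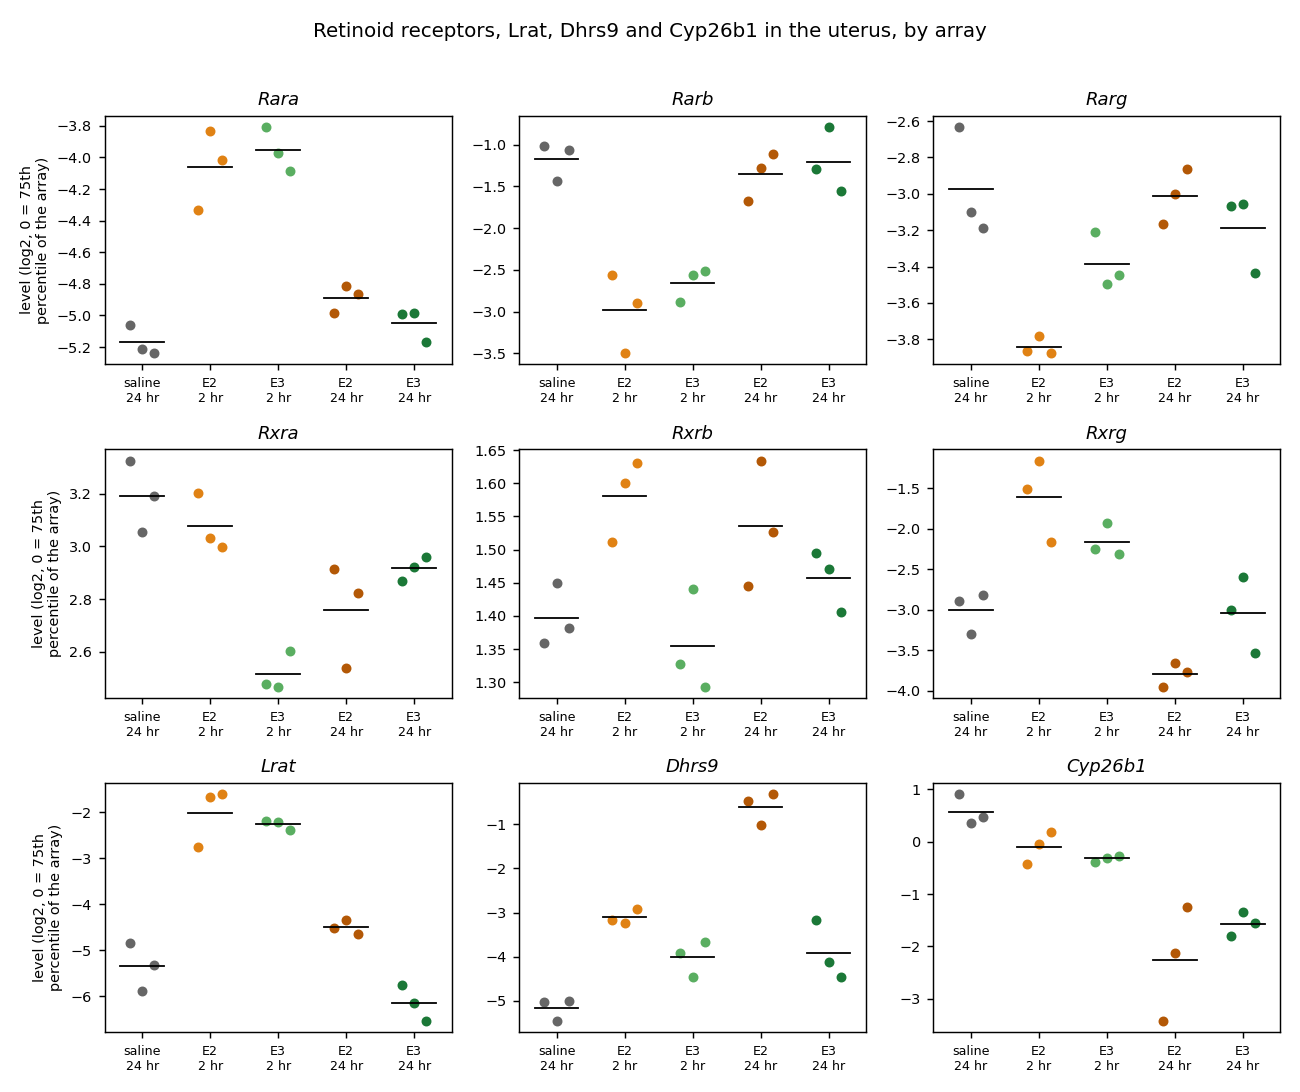
Level (log2, 0 = 75th percentile of the array) of the 6 retinoid receptors and of *Lrat*, *Dhrs9*, and *Cyp26b1* on the 15 arrays, with points for arrays and a line for the group mean. *Rara* and *Lrat* are high and *Rarb* is low in the 2-hr groups, *Dhrs9* is highest with E2 at 24 hr, and *Cyp26b1* is low in both 24-hr groups.

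Of the enzymes, *Lrat*, which stores retinol as its ester, read -4.86, -5.88, and -5.31 with saline and -2.75 to -1.61 at 2 hr. It rose by 3.34 ± 0.31 with E2 (10.1-fold) and 3.09 ± 0.31 with E3 (8.52-fold; limma adjusted p = 2.02e-06 and 6.43e-06), calls that were lost under normexp alone. A dim second probe, well above background on 2 of the 3 saline arrays, rose by 2.18 with E2 and by 2.68 with E3, both called, and the compounds' arrays overlapped. At 24 hr *Lrat* was 1.64 lower on the log2 scale with E3 than with E2, which was called, and normexp correction turned this to 0.0215. That call was also lost without E2 24 hr replicate 2 or E3 24 hr replicate 3 and without the 2 arrays rich in pancreas markers. *Dhrs9*, a short-chain dehydrogenase that can act on retinol, read -5.02, -5.44, and -5.01 with saline, -0.47, -1.02, and -0.33 with E2 at 24 hr, and -3.16, -4.12, and -4.45 with E3 at 24 hr. It rose by 2.05 ± 0.31 with E2 at 2 hr and by 4.55 ± 0.31 with E2 at 24 hr (23.5-fold; limma adjusted p = 4.46e-07), E3 was 9.89-fold below E2, and the smaller E3 change of 1.25 ± 0.31 was not called. The call at 2 hr was lost under normexp correction (1.51), and that at 24 hr under none. A dim second probe of *Dhrs9*, well above background with E2 at 24 hr alone, was called higher there. With E2 at 2 hr it was not called (limma adjusted p = 0.0507), and its arrays overlapped saline. *Cyp26b1*, the other retinoic acid hydroxylase tested, read 0.90, 0.35, and 0.46 with saline, -3.41, -2.12, and -1.24 with E2, and -1.80, -1.34, and -1.56 with E3 at 24 hr. It fell by 2.83 ± 0.40 with E2 and by 2.14 ± 0.40 with E3 at 24 hr (7.1-fold and 4.4-fold; limma adjusted p = 7.26e-05 and 0.00197). The E2 call was lost when only the groups compared were fitted, and the E3 call without saline replicate 1 or E3 24 hr replicate 1 (E3 values -2.25 to -1.91 over all alternatives). Between the compounds the difference at 24 hr was not called (0.69, 95% interval -0.19 to 1.57). *Cyp2s1*, a cytochrome P450 reported to act on retinoic acid, rose by 2.03 ± 0.28 and 1.95 ± 0.28 at 2 hr. *Adh1*, an alcohol dehydrogenase active on retinol, rose by 1.18 and 1.03 at 2 hr. The E2 call of *Adh1* was lost with only the groups compared and without E2 2 hr replicate 1, and the E3 call under quantile normalization, without E3 2 hr replicate 2, and without the arrays rich in pancreas markers. *Rdh12* rose by 1.53 with E2 at 2 hr, and *Dhrs4* rose by 1.29 with E2 at 24 hr. *Rdh5* fell by 1.10 and *Rdh14* by 1.00 with E3 at 2 hr, *Bco2* (Bcdo2 in the files) fell by 1.11 with E2 at 2 hr, and *Ces1d* (Ces3 in the files), a carboxylesterase, fell by 1.49 with E2 at 24 hr. *Ces1d* is known for expression in liver and fat. At 24 hr the median change of the 7 fat markers was -1.91 with E2 and -0.70 with E3, none of them called, where *Ces1d* was at -1.49 and -0.03, and all 11 liver markers were called lower with both compounds. The part of fat or liver RNA in the fall of *Ces1d* was not tested. The call of *Rdh5* was lost without E3 2 hr replicate 3 (-0.977), and that of *Bco2* under normexp correction (-0.68), quantile normalization (-0.992), and without E2 2 hr replicate 2 (-0.973).

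Of 8 known retinoic acid targets tested, 2 had a mean above saline with E2 at 2 hr and 3 with E3, with median changes of -0.43 and -0.20. At 2 hr 2 were called higher with each compound, beside 10.6% and 4.68% of all probes. Called lower were 0 with E2 and 1 with E3, beside 10.7% and 9.11%. Of the 2 called higher, *Nrip1* rose by 2.20 ± 0.12 with each compound, and *Bhlhe40* (Bhlhb2 in the files) rose by 1.77 and 1.82. *Nrip1*, a corepressor of nuclear receptors, is a known estrogen target as well. *Meis1* fell by 1.00 with E3 at 2 hr, which like the fall of *Rdh14* lies at the very limit of the call. Their calls were lost under 7 and 6 of 28 alternatives, including the omission of E3 2 hr replicate 2 or 3 or of saline replicate 3. Second probes of both gave larger falls with E3 at 2 hr, of 1.77 for *Meis1* and 1.16 for *Rdh14* (limma adjusted p = 1.37e-07 and 4.09e-07, both called). They were also called lower for *Meis1* with E2 at 24 hr (-1.21, beside -0.16 on the brighter probe) and for *Rdh14* with E2 at 2 hr (-1.50, beside -0.96). *Rarres1*, named for its response to retinoids, fell by 1.86 with E2 and by 1.15 with E3 at 24 hr. The E2 call was lost under normexp correction (-1.27), and the E3 call under 7 of 28 alternatives, including the omission of replicate 1 or 2 of saline or of E3 24 hr, with values of -1.25 to -0.0646.

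The called genes *Rdh7*, *Adh4*, *Rdh1*, and *Ttr* are known for high expression in liver. *Rdh7* read -1.83, -3.87, and -3.89 with saline, highest on the saline array with the highest liver sum of 27.5, and fell by 4.43 with E2 at 2 hr, by 4.16 with E2 at 24 hr, and by 3.80 with E3 at 24 hr. Without that array, saline replicate 1, the values were -3.75, -3.47, and -3.12, still called, and under normexp correction -2.49, -2.41, and -1.22. With E2 at 2 hr 2 of the 3 arrays were well above background. *Ttr*, the plasma partner of *Rbp4*, was not well above background on any E2 array of 2 hr and was at least 6.64-fold lower there (limma adjusted p = 3.59e-05). *Ttr* also fell with E2 at 24 hr, where 1 of the 3 arrays was well above background. *Adh4* was at least 6.22-fold lower with E2 at 24 hr, and *Rdh1* at least 2.58-fold lower with E2 at 2 hr (limma adjusted p = 1.17e-05 and 2.32e-07). *Rdh1* was at 0.04 and 0.05 against saline at 24 hr with E2 and E3, when the liver markers were low as well. These bounds set the dim group at the lowest signal that was well above background on each array. *Adh4* was also called lower with E2 at 2 hr (-1.91), and *Rdh1* with E3 at 2 hr (-1.16), where 2 of the 11 liver markers were called lower. This *Adh4* call was lost with only the groups compared, and this *Rdh1* call under quantile normalization. The falls of these 4 genes against saline lost their calls under normexp correction, and *Adh4* with E3 at 24 hr turned from -2.20 to 0.257. The part of liver RNA in these falls was not tested.

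The genes most like each of the 9 over the 15 arrays were sought by Pearson correlation among 29725 probes with a gene name. *Rbp4* was followed by *Fabp4* and *Cidec*, both abundant in fat (0.955 each). *Crabp2* was followed by *Krt7*, an epithelial keratin (0.967), and *Nr2f6* (0.96), and *Crabp1* by *Dhcr7*, of cholesterol synthesis (0.993), and *Cd320* (0.979). *Aldh1a2* was followed by *Gatad2a* (0.987) and *Foxk2* (0.981), *Aldh1a3* by *Wnt2* (0.975) and *Coch* (0.972), and *Rdh10* by *Tyro3* (0.984) and BC017158 (0.983). For *Aldh1a1* they were *Grin2b* (0.967) and Utx (0.957), for *Stra6* E130319B15Rik (0.944) and *Asf1a* (0.94), and for *Cyp26a1* *Hps4* (0.937) and *Gtpbp2* (0.917). The arrays share 5 treatment groups, so these values describe patterns over the groups.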

How the data were processed

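Uterine RNA of 15 samples was hybridized by the authors to Agilent Whole Mouse Genome one-color arrays and read with Agilent Feature Extraction 9.5.3.1, as the file headers and processing notes give. The deposited values are the processed signal intensities of each probe, background subtracted within the array by the authors and not scaled between arrays. Probe positions are those of the file headers' build mm7, for which no annotation was used here, so exon and UTR are not given. The deposited value table held the same intensities as the scanner files (largest relative difference 0).

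Spots of a probe were averaged after control and outlier spots were left out. Each intensity was divided by the 75th percentile of its array and taken to log2. Probes well above background on at least 2 of the 3 arrays of any group were tested, 34776 of 41174 (84.5%), with limma 3.58.1 in R 4.3.3 (package data.table, version 1.17.8), as 5 group means with 10 residual and 2.06 prior degrees of freedom. The precision is limited by 3 arrays a group. The study's limits, p below 0.001 and at least 2-fold, made a call, in 7 comparisons. E2, E3, and saline groups came from the sample labels. The authors' own error model was not repeated. The call rule was also run, after the fit, on simulated data with means and spreads from that fit. The planted changes were all well past 2-fold, so the run says nothing about calls near that limit.

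The genes named are the 9 chosen, with every probe (the brightest stands for the gene in counts), pathway genes called against saline, the 6 retinoid receptors, markers that moved with a gene, and the 2 most correlated genes of each. The genes and lists were chosen with earlier results of these data known. Marker sums add linear levels relative to the 75th percentile. Promoters are RefSeq sequences of GRCm38.p6, and 10 of the 11 probes were matched to RefSeq by accession. Figures were drawn with matplotlib 3.10.9 in Python 3.11.15. Alternatives changed the background correction, scaling, filter, call rule, samples in the fit, slide or replicate block, probe, and each array in turn.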

Additional observations from a re-analysis of the deposited data

Results flagged for a closer look

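For 4 genes, by the brightest probe of each, the difference between E3 and E2 itself differed between 2 and 24 hr, by limma's interaction of compound and time. They are 1 of the 9 genes and 3 of the 48 other pathway genes tested, beside 15.5% of all probes called for this interaction, so their number is no result about the pathway. For *Aldh1a3* the E3 minus E2 difference was 2.97 ± 0.42 higher at 24 hr than at 2 hr on the log2 scale (limma adjusted p = 0.000177), and 2.239 ± 0.248 higher on its second probe (limma adjusted p = 3.39e-05). *Rdh5* gave 1.369 ± 0.219 (limma adjusted p = 0.000371) and *Ces1d* 1.545 ± 0.259 (limma adjusted p = 0.000497). For the 7 fat markers the median of this interaction was 0.85 (none called), and for the 11 liver markers it was -4.77 (9 called lower). The part of fat or liver RNA in the value of *Ces1d* was not tested. *Dhrs9* gave -2.409 ± 0.437 (limma adjusted p = 0.000851). Under normexp correction the values of the brightest *Dhrs9* probe (-1.9) and of the second *Aldh1a3* probe (2.18) were no longer called. The E2 arrays of 2 hr enter each of these, so strain and scanner cannot be told apart from time and compound here.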

How the results depend on the processing

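Of the 20 called results of the 9 genes, 9 kept their call under every alternative run, and of 554 values under alternatives 524 kept it, 30 lost it, and 0 turned sign. For the 46 called results of the other pathway genes, 1178 of 1263 kept the call, 83 lost it, and 2 turned sign. The causes of the changes below were not tested.

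Normexp background correction moved the median of all probes by 0.325 (E3 at 24 hr against saline), 0.374 (E3 minus E2 at 24 hr), and 0.37 (the interaction). It left 6, 6, 4, and 1 other pathway genes called for E2 2 hr, E3 2 hr, E2 24 hr, and E3 24 hr (higher and lower 5 and 1, 4 and 2, 2 and 2, and 0 and 1), and 0 of the 9 and 0 others for E3 minus E2 at 2 hr. It turned the sign of the *Aldh1a3* second probe at E2 2 hr (0.0211), *Cyp26a1* at E3 2 hr (0.00997), *Stra6* (0.000471) and *Adh4* (0.257) at E3 24 hr, *Lrat* for E3 minus E2 at 24 hr (0.0215), and the interactions of *Crabp2* (0.00614) and *Stra6* (0.564). Quantile normalization turned the *Aldh1a3* second probe (0.0985) and *Crabp1* (0.0797) at E2 2 hr and *Cyp26a1* at E3 2 hr (0.0877), called 1 of the 9 at E3 24 hr, and called 4 and 5 others for E3 minus E2 at 2 hr and the interaction (2 higher and 3 lower, against 2 and 1). Of the other pathway genes it called 2 higher and 7 lower for E2 at 24 hr.

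Of the 9 genes, E2 2 hr gave 2 and E3 minus E2 at 2 hr 0 without scaling. E3 2 hr gave 3, E3 24 hr 2, and the interaction 3 at an adjusted p below 0.05 with 2-fold. With no minimum change E3 2 hr gave 2 and E3 24 hr 1. With only the groups compared these gave 2 and 1, and E3 minus E2 at 2 hr gave 0. Counting any probe, E3 24 hr gave 1. Of the other genes, E3 minus E2 at 2 hr gave 1 without the filter, with only the groups compared, and with the replicate block, and 5 with no minimum change or any probe. E3 minus E2 at 24 hr gave 5 and the interaction 8 by adjusted p, and 8 and 5 with no minimum change, where E2 24 hr gave 13. Counting any probe the interaction gave 6. Without the 2 arrays rich in pancreas markers, chosen after seeing the data, E3 minus E2 at 2 hr gave 0 of the 9 and 0 others, *Rbp4* there was -0.216, and the interaction of *Stra6* was 0.0242.

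Leaving out each array in turn gave 2 to 5 of the 9 for E2 2 hr (2 without saline replicate 2), 1 to 2 for E3 2 hr, 0 to 1 for E3 24 hr, 0 to 1 for E3 minus E2 at 2 hr, 3 to 4 at 24 hr, 1 to 2 for the interaction, and 5 throughout for E2 24 hr. Other genes gave 2 to 5 for E3 24 hr, 0 to 3 for E3 minus E2 at 2 hr, and 3 to 4 for the interaction. Uncalled values that turned sign ranged from -0.216 to 0.0889 (*Aldh1a3* second probe, E2 2 hr), -0.535 to 0.508 (*Crabp1*, E2 2 hr), -0.193 to 0.313 (*Cyp26a1*, E3 2 hr), -0.223 to 0.0903 (*Stra6*, interaction), and -0.004 to 0.3 (*Aldh1a1*, interaction). Those of *Rbp4* ranged from -0.625 to 0.00893 (E2 2 hr), -0.524 to 0.11 (E3 2 hr), -0.216 to 0.354 and -0.077 to 0.677 (E3 minus E2 at 2 and 24 hr), and -0.178 to 0.576 (interaction).

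The replicate numbers are not shown to pair the arrays: 30 same-numbered pairs correlated at -0.467 to 0.551 (median 0.0348), against a median of 0.0172 for 60 other pairs. With the replicate block the calls among the 9 genes were 4, 1, 5, 0, 1, 4, and 1, as without it, and over all probes 7241, 4733, 6154, 1274, 2478, 1637, and 5211. Signal near background limits *Crabp2*, whose standard error against saline (0.513) was the largest of the 9 genes, and there is no 2-hr saline group.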
